A study of Mus musculus with 4 samples.

Results

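The genes described here are 10 markers of the trophectoderm, chosen by symbol among the 23259 genes in the files: the transcription factors Cdx2, Elf5, Eomes, Tfap2c, Gata3, Hand1 and Tead4 and the keratins Krt8, Krt18 and Krt19. Total RNA was sequenced from 4 clones of mouse embryonic stem cells, 2 without Gcn5 (KO) and 2 with it (WT). Gcn5, under the symbol Kat2a in the files, acetylates histones as the catalytic subunit of SAGA and ATAC. Both Gcn5flox/flox founder lines, 4 and 6, came from day 3.5 blastocysts and were transiently transfected with an EF1α-driven EGFPcre vector. The KO clones (4-C2 in line 4, replicate 1, and 6-C4 in line 6, replicate 2) were picked from GFP-positive cells and lack exons 3 to 18 of Gcn5. The WT clones (4-1 in line 4, replicate 1, and 6-1 in line 6, replicate 2) were picked from GFP-negative cells of the same transfections and keep the floxed alleles. All 4 clones were grown with serum and LIF on mitomycin-treated fibroblast feeders, and each genotype in each line is a single clone. The samples carry no label of differentiation towards trophoblast.

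The trophectoderm is the outer epithelium of the blastocyst and the source of the placenta. In outer cells Hippo signalling is low, Yap1 enters the nucleus and, with the DNA-binding protein Tead4, activates Cdx2 and Gata3. Cdx2, Eomes, Elf5 and Tfap2c then sustain one another in trophoblast stem cells, while in embryonic stem cells Pou5f1 opposes Cdx2 and the Elf5 promoter is methylated. Krt8, Krt18 and Krt19 form the intermediate filaments of this and other simple epithelia.

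The promoter table in the RefSeq set (GRCm38.p6) held entries for 6 of the 10 genes. The 250 bases before the start are shown 5′ to 3′ for Krt8 and Krt18, which among the 6 tested members were those listed higher in KO than in WT in both lines, and for Cdx2, whose mean level differed between the lines by the largest ratio of the 10. Capitals mark any match, on either strand, to the letters searched.
Krt8, chr15:102004343-102004592, minus strand: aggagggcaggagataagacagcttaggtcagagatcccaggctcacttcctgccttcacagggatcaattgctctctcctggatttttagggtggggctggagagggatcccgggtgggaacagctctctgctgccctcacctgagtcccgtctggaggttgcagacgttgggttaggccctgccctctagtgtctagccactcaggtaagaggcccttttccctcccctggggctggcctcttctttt
Krt18, chr15:102027966-102028215, plus strand: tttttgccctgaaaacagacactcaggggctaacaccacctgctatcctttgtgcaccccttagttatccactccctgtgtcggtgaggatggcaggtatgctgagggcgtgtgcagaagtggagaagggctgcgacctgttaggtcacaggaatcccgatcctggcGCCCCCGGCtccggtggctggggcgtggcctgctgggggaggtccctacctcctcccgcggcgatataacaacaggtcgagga
Cdx2, chr5:147307250-147307499, minus strand: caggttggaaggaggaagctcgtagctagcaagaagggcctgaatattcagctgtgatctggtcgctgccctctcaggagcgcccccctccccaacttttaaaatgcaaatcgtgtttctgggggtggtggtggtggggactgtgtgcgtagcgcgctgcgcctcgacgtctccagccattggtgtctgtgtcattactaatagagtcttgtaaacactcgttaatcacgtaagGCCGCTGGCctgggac
The searched letters were TATAAA for the box bound by TBP, GGGCGG for Sp factors, GCCNNNGGC for AP-2 (the family of Tfap2c), GGAATG for TEAD factors, TTTATNG for CDX factors and TGANTCA for AP-1. Krt18 and Cdx2 each held 1 AP-2 match, at 83 to 75 and 16 to 8 bases before the start, and no match to the other letters. The Krt8 window held none, which says only that these letters are not in it. AP-2 letters were present in 13.7% of 32817 promoter windows of the same length, TEAD letters in 12.6%, CDX letters in 9.81%, AP-1 letters in 6.75%, Sp letters in 32.7% and TBP letters in 12.4%. Krt18 is the next protein-coding gene after Krt8 on chromosome 15. Krt8 lies on the minus strand and Krt18 on the plus strand, so they are transcribed away from each other, whereas Krt19 lies on chromosome 11.

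Of the 10 genes, 6 were listed at a mean of at least 1 FPKM (fragments per kilobase of transcript, scaled for sequencing depth and here to spike-ins by the authors) and entered the tests. The 6, in order of mean level over the 4 libraries (SD, n = 4), were Tfap2c at 23.1 ± 10.3 FPKM, Krt18 at 16.9 ± 2.70, Krt8 at 14.9 ± 5.34, Krt19 at 5.86 ± 2.83, Tead4 at 3.86 ± 0.973 and Eomes at 1.66 ± 0.280. Below the limit stood Cdx2 at 0.314 ± 0.246 FPKM, Hand1 at 0.134 ± 0.0514, Gata3 at 0.0804 ± 0.0162 and Elf5 at 0.0360 ± 0.0203. Between neighbours in this order, the ranges overlapped for Tfap2c and Krt18, Krt18 and Krt8, Krt19 and Tead4, Cdx2 and Hand1, and Hand1 and Gata3. Krt8 lay above Krt19, Tead4 above Eomes, Eomes above Cdx2 and Gata3 above Elf5 in every library with no overlap. Tfap2c, which primordial germ cells also need, was listed above 80.0% to 89.4% of all genes in each library, and Eomes above 52.0% to 54.4%. In bulk RNA such as this, fewer cells of a type and less RNA per cell cannot be told apart.

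**Figure D1:**
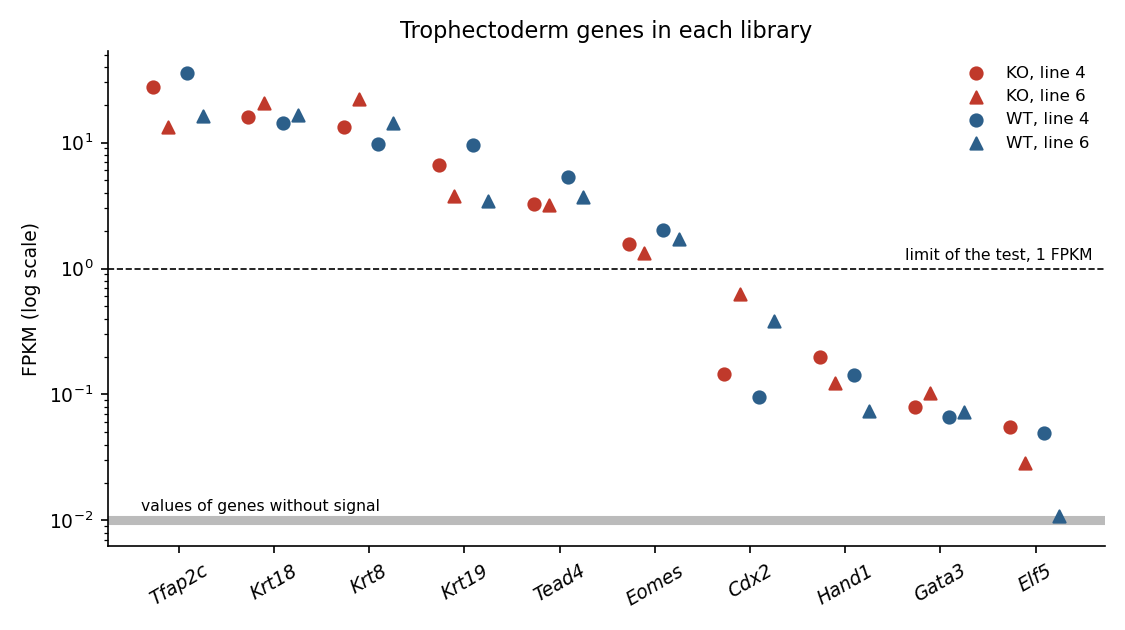
FPKM of the 10 genes in each library on a log scale, ordered by mean level, with KO in red, WT in blue, line 4 as circles and line 6 as triangles. Tfap2c, the keratins, Tead4 and Eomes sit above the 1 FPKM limit of the test (dashed), and Cdx2, Hand1, Gata3 and Elf5 sit between it and the grey band of values shared by genes without signal.

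Of the regulators that define trophectoderm identity, Cdx2, Gata3, Hand1 and Elf5 stayed under 1 FPKM in every library. In each library 4112 or 4319 genes share 1 small number, 0.00937 to 0.0107 FPKM, taken here as the value of no signal, and some genes are listed slightly below it. Elf5, the factor that reinforces Cdx2 and Eomes in trophoblast stem cells, was listed at 0.0554 and 0.0288 FPKM in KO lines 4 and 6 and at 0.0491 and 0.0108 FPKM in WT lines 4 and 6, the last of these within 5% of the value shared by genes without signal there. Gata3, which acts beside Cdx2 downstream of Tead4, was listed at 0.0800 and 0.103 FPKM in KO and at 0.0658 and 0.0727 FPKM in WT. Hand1, needed for trophoblast giant cells, was listed at 0.198 and 0.123 FPKM in KO and at 0.143 and 0.0739 FPKM in WT. Neither Elf5, Gata3 nor Hand1 reached 0.2 FPKM in any library, and the depth behind these values is unknown, so they are described without a test. Pou5f1, by contrast, was listed at 453.8 and 640.0 FPKM in KO and at 714.8 and 781.5 FPKM in WT.

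Cdx2, the master regulator of the lineage, was higher in both line 6 clones than in both line 4 clones. It was listed at 0.631 FPKM in KO and 0.382 FPKM in WT of line 6, against 0.146 FPKM in KO and 0.0961 FPKM in WT of line 4. Line 6 over line 4 was a ratio of 4.32 in KO and 3.97 in WT, and KO over WT a ratio of 1.52 in line 4 and 1.65 in line 6. Among 3482 genes listed between 0.04 and 1 FPKM in every library, a window set after the data were seen, 13.8% were at least 1.5-fold higher in line 6 in both genotypes. Cdx2, Hand1 and Gata3 lie in this window. These 3 were listed higher in KO than in WT in both lines, which held for 10.7% of genes in the window. Elf5 was also listed higher in KO in both lines, but the value of no signal differs between libraries. As a multiple of that value, Elf5 stood at 5.21 in KO and 5.23 in WT of line 4. In line 6 it stood at 3.075 in KO and 1.01 in WT. No test was made at this level.

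The comparison of KO with WT asks what the loss of Gcn5 does to these genes. Krt8 and Krt18, the partners of one filament, were listed higher in KO than in WT in both lines, while Tfap2c, Eomes and Tead4 were listed lower in both. Krt19 went in opposite directions. Of the 6 tested genes 0 passed the test over all genes and 0 had an unadjusted p under 0.05. That test, limma with Benjamini-Hochberg adjustment at 0.05, called 2 of 11932 genes, or 0.0168%. The spread it used also holds the difference between founder lines. In limma with founder line as a block, Krt8 alone of the 6 had an unadjusted p under 0.05, at 0.0199 (adjusted p = 0.242). Over all tested genes 54 were higher and 2309 lower at that unadjusted cut. Kat2a, the targeted gene, was listed at 11.5 FPKM in each KO clone, against 38.7 and 34.4 FPKM in WT lines 4 and 6, over the whole gene and not the deleted exons alone.

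Most genes were listed lower in KO on the spike-in scale. The median tested gene lay at -0.445 in line 4 and -0.185 in line 6 in log2(FPKM + 1), KO minus WT, so distances from it are given beside the differences as deposited.

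Krt8, the type II keratin of simple epithelia, was listed at 13.2 and 22.4 FPKM in KO lines 4 and 6, against 9.73 and 14.4 FPKM in WT lines 4 and 6. The KO clone was the higher of its line in both, at ratios of 1.36 and 1.56, although the genotypes overlapped across lines. This gave a log2 fold change of 0.51 (SE 0.28; adjusted p = 0.445 by limma, 2 clones each). Relative to the median gene Krt8 lay at 0.85 in line 4 and 0.79 in line 6. With founder line as a block and values centred on each library's median the adjusted p was 0.0469, where 0.277% of genes passed. With the block on the deposited scale it was 0.242, and 0.796% of genes passed.

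Krt18, its type I partner, was listed at 16.0 and 20.7 FPKM in KO lines 4 and 6, against 14.3 and 16.6 FPKM in WT lines 4 and 6. The pattern was that of Krt8 at a smaller size, with KO higher in each line by ratios of 1.12 and 1.25, and again the genotypes overlapped across lines. The fold change on the log2 scale was 0.23 (SE 0.24; adjusted p = 0.49 by limma), and relative to the median gene it lay at 0.60 in line 4 and 0.49 in line 6. A higher value in KO in both lines was uncommon: 115 of 11932 tested genes, or 0.964%, had it, and Krt8 and Krt18 are 2 of the 6 tested genes. Both kept a positive difference without each single library, at 0.15 to 0.86 for Krt8 and 0.052 to 0.40 for Krt18. The centred scale raised the difference of every gene by the same amount, so it could not have turned these negative. Quantile normalization, which also removes the overall shift, gave 0.83 for Krt8 and 0.57 for Krt18. Both KO clones above both WT clones was seen in 0.268% of genes and in neither keratin.

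**Figure D2:**
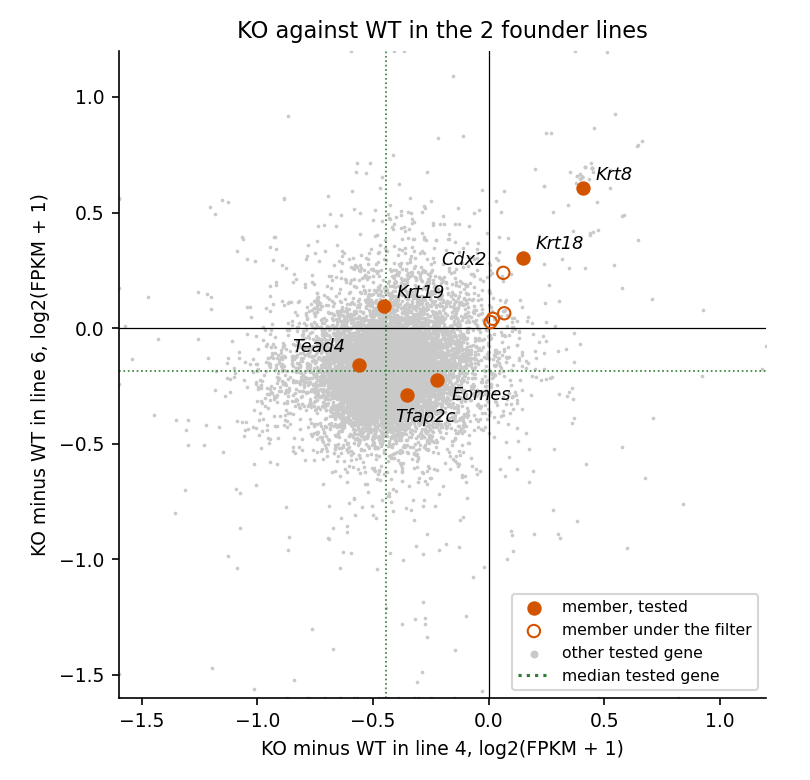
KO minus WT in log2(FPKM + 1), line 4 on the x axis and line 6 on the y axis, for tested genes (grey, drawn at the edge where they lie beyond it), tested members (filled) and members under the filter (open), with the median gene dotted. Krt8 at 0.41 and 0.61 and Krt18 at 0.15 and 0.31 lie right of and above 0, while the median gene lies at -0.445 and -0.185.

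Krt19, a type I keratin that can replace Krt18 as the partner of Krt8, was listed at 6.69 and 3.77 FPKM in KO lines 4 and 6, against 9.50 and 3.46 FPKM in WT lines 4 and 6. KO was lower in line 4, at a ratio of 0.703, and slightly higher in line 6, at 1.09. Its log2 fold change was -0.18 (SE 0.35; adjusted p = 0.675 by limma). On centred values it was 0.13 (adjusted p = 1.0), so the direction depended on the scale.

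Among the transcription factors 0 of 3 tested passed. Tead4 was listed at 3.26 and 3.21 FPKM in KO lines 4 and 6, against 5.28 and 3.70 FPKM in WT lines 4 and 6. Both KO clones lay below both WT clones, as they did in 59.8% of tested genes, at a log2 fold change of -0.36 (SE 0.27; adjusted p = 0.445 by limma). Relative to the median gene Tead4 lay at -0.12 in line 4 and 0.027 in line 6. Eomes, a T-box factor of trophoblast stem cells that also acts in mesoderm and definitive endoderm, was listed at 1.58 and 1.34 FPKM in KO lines 4 and 6, against 2.00 and 1.73 FPKM in WT lines 4 and 6. Here too both KO clones were below both WT clones. The log2 fold change of Eomes was -0.22 (SE 0.25, adjusted p = 0.506), and on centred values it was 0.084 (adjusted p = 1.0). Tfap2c was listed at 27.6 and 13.2 FPKM in KO lines 4 and 6, against 35.5 and 16.3 FPKM in WT lines 4 and 6. KO was the lower of each line, but the gap between founder lines was wider than that between KO and WT. Its log2 fold change was -0.32 (SE 0.33, adjusted p = 0.483), against -0.014 on centred values and 0.017 with quantile normalization.

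By a cut of 1.5-fold within a line, Tead4 was lower in KO of line 4, where 30.9% of tested genes were, and Krt8 was higher in KO of line 6, where 0.972% were. No tested member was 1.5-fold higher in KO of line 4 or lower in KO of line 6, against 0.26% and 3.8% of tested genes. These are single clones, and the differences within a line have no replicate check.

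Markers of other cells moved beside these values. Of 17 tested fibroblast markers, 0 were listed higher in KO in line 4, where 2.36% of all tested genes were, and 17 were in line 6, where 12.3% were. Set against the median gene, 11 of the 17 lay above it in line 4 and 17 in line 6. The summed level of the 20 markers was 244.2 and 358.4 FPKM in KO lines 4 and 6, against 321.8 and 302.7 FPKM in WT lines 4 and 6, and 0 of the 20 were at the value of no signal in all libraries. The cultures hold feeder fibroblasts, and the sources used here do not say whether RNA came from feeder-free cells. The part of feeder cells in the values of Krt8 and Krt18 was not tested.

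The make-up of the keratin transcripts differed by line and by genotype. Krt8 over Krt18 was a ratio of 0.826 and 1.08 in KO lines 4 and 6, against 0.679 and 0.867 in WT lines 4 and 6. Krt8 made up 36.8% and 47.8% of the summed FPKM of the 3 keratins in KO lines 4 and 6, against 29.0% and 41.8% in WT. Krt19 made up 18.6% and 8.04% in KO lines 4 and 6, against 28.3% and 10.1% in WT. Krt18 held between 42.7% and 48.2% in all 4 libraries. The sum itself was 36.0 and 46.9 FPKM in KO, against 33.6 and 34.4 FPKM in WT. Ratios within a library do not depend on one scale factor for the library, and show unequal levels without saying which gene moved. Depth gives no interval here, as the files hold no counts.

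**Figure D3:**
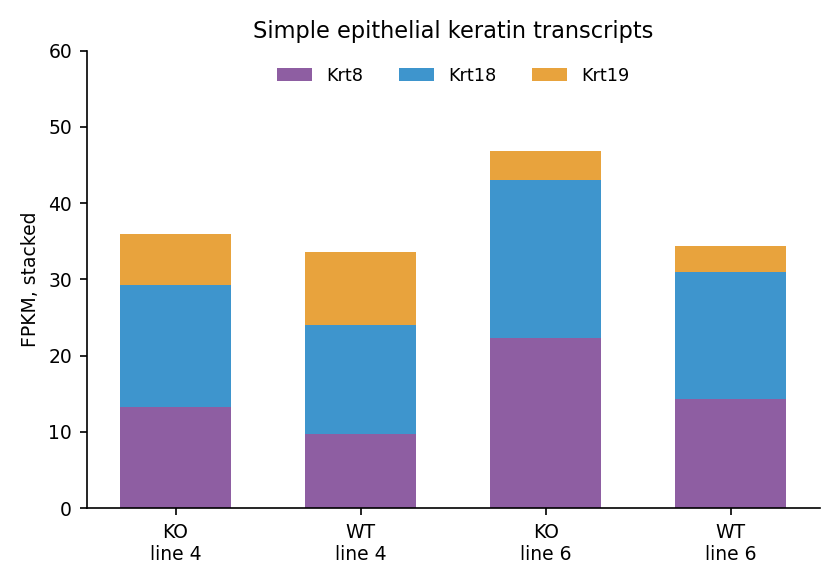
Stacked FPKM of Krt8, Krt18 and Krt19 in the KO and WT clone of lines 4 and 6. The Krt19 part is 6.69 and 9.50 FPKM in KO and WT of line 4 and 3.77 and 3.46 FPKM in KO and WT of line 6, while the Krt8 part is largest in KO of line 6, at 22.4 FPKM.

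The comparison of line 6 with line 4 asks how far the founder cells differ. Tfap2c and Krt19 were lower in line 6 than in line 4, and Krt8 and Krt18 were higher, in both genotypes. With founder line as the only factor 0 of the 6 passed the test over all genes, which called 236 of 11932 genes, or 1.98%, and 2 of the 6, Tfap2c and Krt19, had an unadjusted p under 0.05. With genotype added as a term, Tfap2c and Krt19 passed, where 9.13% of genes did. With genotype as a term on centred values Krt8 and Krt18 passed as well, where 29.6% did.

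Tfap2c was listed at 13.2 FPKM in KO and 16.3 FPKM in WT of line 6, against 27.6 FPKM in KO and 35.5 FPKM in WT of line 4. The lines did not overlap, and line 6 over line 4 was a ratio of 0.478 in KO and 0.460 in WT. This was a log2 fold change of -1.04 (SE 0.34; limma adjusted p = 0.0948; 4.84e-05 with genotype as a term and 0.00516 with it on centred values). Krt19 was listed at 3.77 FPKM in KO and 3.46 FPKM in WT of line 6, against 6.69 FPKM in KO and 9.50 FPKM in WT of line 4. Its lines did not overlap either, at ratios of 0.563 in KO and 0.364 in WT. The log2 fold change of Krt19 was -0.96 (SE 0.32, adjusted p = 0.102; 0.000585 with genotype as a term and 0.00664 with it on centred values). Both libraries of line 6 lay below both of line 4 in 17.4% of tested genes. Tfap2c and Krt19 were also at least 1.5-fold lower in line 6 in both genotypes, as 5.18% of tested genes were.

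Krt8 was listed at 22.4 FPKM in KO and 14.4 FPKM in WT of line 6, against 13.2 FPKM in KO and 9.73 FPKM in WT of line 4. The lines did not overlap, which in this direction held for 16.3% of tested genes, at a log2 fold change of 0.62 (SE 0.34; limma adjusted p = 0.649; 0.0503 with genotype as a term and 0.00757 with it on centred values). Krt18 showed the same order without overlap, at a log2 fold change of 0.27 (SE 0.34, adjusted p = 0.999; 0.507 with genotype as a term and 0.0416 with it on centred values). None of the 6 was 1.5-fold higher in line 6 in both genotypes, as 3.29% of tested genes were. Krt8 came nearest, at ratios of 1.69 in KO and 1.48 in WT. Tead4, at -0.22, and Eomes, at -0.14, had lines that overlapped (adjusted p = 0.999 for both).

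These calls changed when a line 4 library was left out. Without KO replicate 1, Tfap2c, Krt19 and Krt8 passed, at adjusted p of 0.000386, 7.22e-06 and 0.0192, where 13.5% of all genes passed. Without WT replicate 1, Tfap2c and Krt19 passed, at 0.0333 and 0.0196, where 7.15% did. With the other libraries left out none of the 6 passed. In the line comparison limma gave each gene the spread of genes of like level, since the prior degrees of freedom were infinite on the deposited scale.

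**Figure D4:**
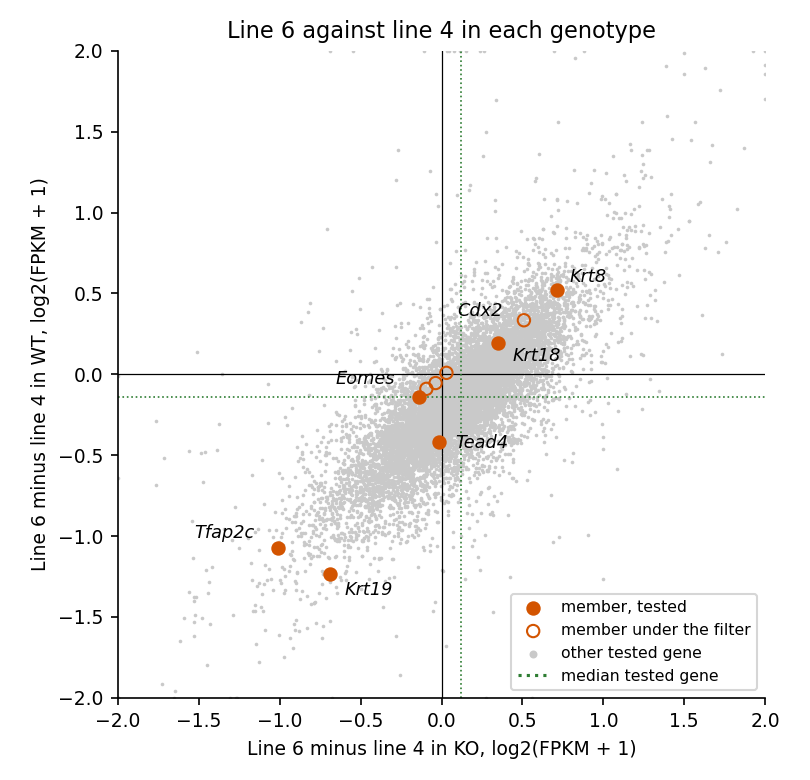
Line 6 minus line 4 in log2(FPKM + 1), in KO on the x axis and in WT on the y axis, for tested genes (grey, drawn at the edge where they lie beyond it), tested members (filled) and members under the filter (open), with the median gene dotted. Tfap2c, at -1.01 and -1.07, and Krt19, at -0.69 and -1.24, lie at the lower left, and Krt8, at 0.72 and 0.52, at the upper right.

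Among the tested genes whose profile over the 4 libraries lay nearest to that of Tfap2c, the member of highest mean level, though not the highest in line 6, were Hist1h2bh, Pcgf5, Rab3il1 and Adssl1. Their Euclidean distances in centred log2(FPKM + 1) were 0.0616 to 0.0890. Hist1h2bh, a histone H2B gene and the nearest, was listed at 362.9 and 180.7 FPKM in KO lines 4 and 6, against 486.7 and 228.6 FPKM in WT lines 4 and 6. Over 4 libraries this is a description only.

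The partners through which Tead4 acts were present in every clone. The list of Hippo pathway genes and Tead partners had 18 of 19 members tested. Of these 0 passed for KO against WT, with a median log2 fold change of -0.20, against -0.32 for all tested genes. For line 6 against line 4, 1 was higher, 0 were lower and 17 did not pass, where 1.98% of all tested genes passed. The median was 0.050, against -0.013 for all tested genes. The gene that passed was Amot, which holds Yap1 at junctions, at 3.96 and 4.16 FPKM in KO and WT of line 6, against 1.37 and 1.57 FPKM in KO and WT of line 4 (log2 fold change 1.04, limma adjusted p = 0.0136). Tead2, at 51.5 to 79.6 FPKM, was the most abundant Tead gene in all libraries. Its log2 fold change for KO against WT was -0.40 (adjusted p = 0.445). For KO against WT Nf2, an upstream activator of the kinase cascade, stood at -0.36 and the kinase Stk4 at -0.37 (adjusted p = 0.445 for both). The kinase Stk3 (line 6 against line 4, -0.60, adjusted p = 0.67) and the Yap1 target Ankrd1 (0.32, adjusted p = 0.832) did not pass.

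Other transcription factors of the trophoblast were low or did not pass. Of 13 in the files, 7 were under 1 FPKM in every library, among them the AP-2 factor Tfap2a at 0.0350 to 0.0727 FPKM, and 6 were tested. In each comparison 0 of the 6 passed, at medians of -0.29 for KO against WT and 0.20 for line 6 against line 4. Klf5, a Krüppel-like factor shared with the stem cell network, was listed at 16.4 and 24.1 FPKM in KO lines 4 and 6, against 32.8 and 29.1 FPKM in WT lines 4 and 6 (log2 fold change -0.61, limma adjusted p = 0.445). Id2 (line 6 against line 4, 0.64, adjusted p = 0.625) and Arid3a (-0.53, adjusted p = 0.685) did not pass. Id2 passed with genotype as a term (0.0457).

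Placental and trophoblast signalling genes were likewise mostly low. Of 19 in the files 11 were under 1 FPKM in every library and 5, the placental hormones Prl3b1 and Prl2c2, the proteases Cts7 and Ctsq and the spongiotrophoblast marker Tpbpa, were within 5% of the value of no signal throughout; these 5 were named after their values were seen. Of the 8 tested, 0 passed for KO against WT, at a median of -0.12. For line 6 against line 4, 0 were higher and 1, the imprinted H19, was lower, where 1.98% of all tested genes passed. H19 was listed at 6.39 and 13.8 FPKM in KO and WT of line 6, against 20.6 and 26.9 FPKM in KO and WT of line 4 (log2 fold change -1.23, limma adjusted p = 0.022). Phlda2, an imprinted regulator of placental growth, had a log2 fold change of -1.18 for KO against WT and did not pass (limma adjusted p = 0.445). With the block the adjusted p was 1.32e-05 on the deposited scale. On centred values with the block it was 0.799, at a log2 fold change of -0.88. Peg10, a retrotransposon-derived gene needed for the placenta, was listed at 26.9 and 45.0 FPKM in KO lines 4 and 6, against 34.9 and 16.9 FPKM in WT lines 4 and 6, so its lines went opposite ways (0.50, adjusted p = 0.445).

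Of the other tested keratins, linker and filament genes 0 were listed higher in KO in both lines, as few genes were (0.964% of all tested). Of 19 other keratins, 15 were under 1 FPKM in every library and 4 were tested, with 0 past the test in either comparison and medians of -0.39 for KO against WT and -0.11 for line 6 against line 4. Krt42 and Krt17, both type I, had log2 fold changes of -0.59 and -0.57 for KO against WT (limma adjusted p = 0.445 for both). Krt7, a type II keratin of simple epithelia, was listed at 3.25 and 2.54 FPKM in KO lines 4 and 6, against 4.68 and 2.21 FPKM in WT lines 4 and 6. Like Krt19 it was lower in line 6, but its lines differed by -0.54 and did not pass (adjusted p = 0.618). Of 16 tested desmosome, plakin and other filament genes, 0 passed in either comparison, at medians of -0.23 and -0.12. Perp, a desmosome protein, had the lowest p between the lines (0.86, adjusted p = 0.2; 0.00282 with genotype as a term).

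Genes of the trophectoderm epithelium, which pump fluid into the blastocyst cavity and seal it, did not pass in either comparison. Of 18 tested, 12 were listed lower in line 6 in both genotypes, as 34.9% of all tested genes were, and 3 were higher in both, at a median of -0.27, against -0.013 for all tested genes. With genotype as a term 0 were higher and 5 lower, where 9.13% of all tested genes passed in either direction. Cldn4, a tight junction claudin, was listed at 39.3 and 44.9 FPKM in KO and WT of line 6, against 82.6 and 109.4 FPKM in KO and WT of line 4 (log2 fold change -1.16, limma adjusted p = 0.0529; 4.09e-07 with genotype as a term). The polarity kinase Prkcz (-0.81, adjusted p = 0.295; 0.00616 with the term) and the aquaporin Aqp3 (-0.72, adjusted p = 0.487; 0.0184 with the term) also lay lower in line 6. For KO against WT 0 of the 18 passed, at a median of -0.31, and 0 were listed higher in KO in both lines, near the share of all tested genes (0.964%).

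**Figure D5:**
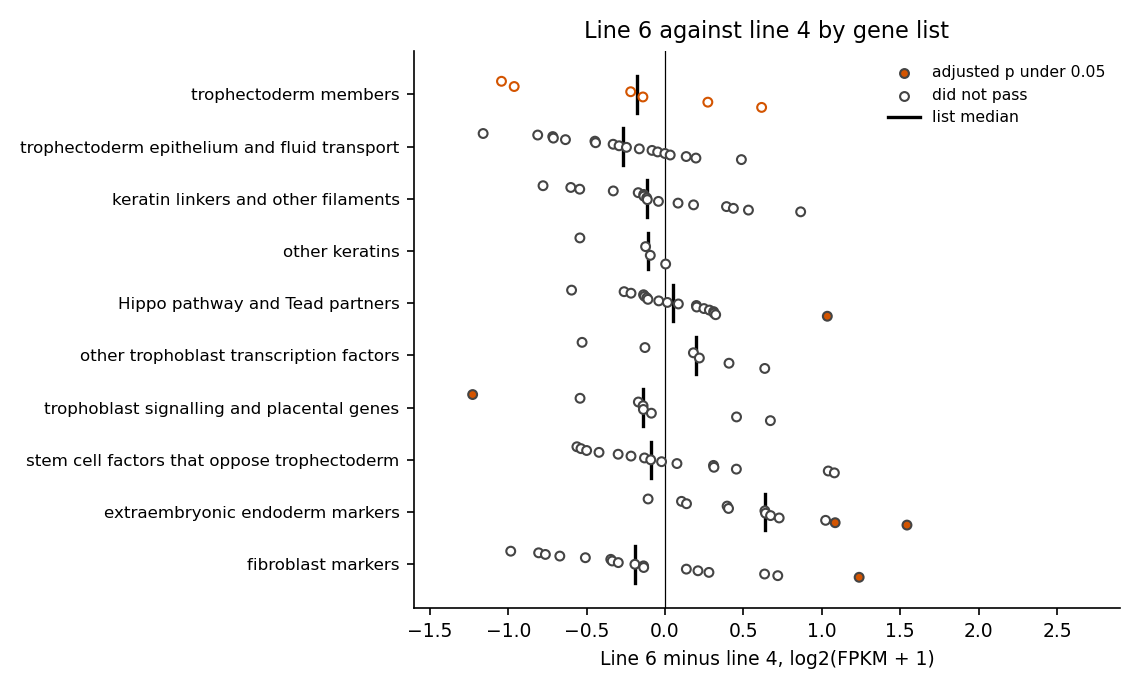
Line 6 minus line 4 in log2(FPKM + 1) for the tested genes of each list, 1 point per gene, filled where the adjusted p was under 0.05, with the list median as a bar. The 6 trophectoderm members run from -1.04 (Tfap2c) to 0.62 (Krt8), and the extraembryonic endoderm list has its median at 0.64.

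Markers of extraembryonic endoderm, the other early lineage with Krt8, Krt18 and Krt19, were mostly higher in line 6, while fibroblast markers went both ways. Of 12 tested extraembryonic endoderm markers, 11 were higher in line 6 in both genotypes, as 30.8% of all tested genes were. Of the 12, 2 passed, where 1.98% of all tested genes did, or 7 with genotype as a term, where 9.13% did. The 2 were the endocytic genes Cubn and Dab2 (log2 fold changes 1.54 and 1.09, limma adjusted p = 8.88e-07 and 0.00234). The summed level of the 20 markers was 183.1 and 188.1 FPKM in KO and WT of line 6, against 109.7 and 154.8 FPKM in KO and WT of line 4. The transcription factor Gata6 was listed at 0.341 to 1.39 FPKM and Afp at 0.00940 to 0.0512 FPKM over the 4 libraries, and 0 markers were at the value of no signal throughout. For KO against WT 0 of the 12 passed, at a median of -0.26, and 0 were higher in KO in both lines, near the share of all tested genes (0.964%). Fibroblast markers summed to 358.4 and 302.7 FPKM in KO and WT of line 6, against 244.2 and 321.8 FPKM in KO and WT of line 4. Of the 17 tested, 1 passed between the lines, S100a4 (1.24, limma adjusted p = 0.0289). The list went both ways, at a median of -0.19, with 4 higher and 5 lower in line 6 in both genotypes. With genotype as a term 3 were higher and 4 lower. Primitive streak and mesoderm markers, which can accompany Eomes and Hand1, had 0 of 13 tested, and summed to 3.11 and 3.35 FPKM in KO lines 4 and 6, against 2.99 and 3.83 FPKM in WT. The part of these cells in the differences of the keratins, Eomes and Cdx2 was not tested.

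The stem cell factors listed as opposing the trophectoderm ranged from Tbx3, at 4.64 to 8.98 FPKM, to Pou5f1, at 453.8 to 781.5 FPKM. Whether each gene on the list opposes that lineage was not examined. Of 15 tested, 0 passed in either comparison, at medians of -0.41 for KO against WT and -0.091 for line 6 against line 4. Pou5f1 had a log2 fold change of -0.47 for KO against WT (limma adjusted p = 0.445). The DNA methyltransferases Dnmt3a and Dnmt3b were listed higher in line 6, by 1.08 and 1.04 in log2 (adjusted p = 0.0746 and 0.145, not past the test; 1.77e-05 and 2.73e-06 with genotype as a term). All 10 stem cell identity markers were tested, and 0 passed in either comparison. For KO against WT, 2 of the 10 lay above the median gene in line 4 and 1 in line 6. The 10 markers summed to 3402 and 3559 FPKM in KO lines 4 and 6, against 5354 and 4300 FPKM in WT lines 4 and 6. Dppa5a alone was listed at 1962 and 1977 FPKM in KO lines 4 and 6, against 3124 and 2390 FPKM in WT.

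Reads of 4 of the members could be shared with other genes. In the GENCODE M21 annotation Krt8 has a pseudogene, Krt8-ps, that matches its transcript at 95% identity or more over up to 941 bases, and an antisense noncoding gene, Gm36026. Eomes, Gata3 and Tead4 are each overlapped by at least 1 gene on the opposite strand, and Gata3 also by 1 on its own strand. The library kit keeps strand, but the sources used here do not say whether the counting used it. For Krt18, Krt19, Tfap2c, Cdx2, Elf5 and Hand1 the search found 0 copies at this identity over 100 bases or more and 0 overlapping genes.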

How the data were processed

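Total RNA of 4 clones was sequenced after ribosomal RNA removal with a stranded kit, per the labels' protocols. The RNA was spiked with ERCC mix 1 or 2, and the sources used here do not tie a mix to a clone. The authors deposited 1 spike-in normalized FPKM value per gene and library, per the file headers. The submitters' processing notes list TopHat2 2.0.9, Bowtie 0.12.8, HTSeq, edgeR, affy and the build mm9, with no role for any. Depth is unknown, and how the spike-ins scaled the FPKM is not given, so a scale error of 1 library moves all its genes. Each library summed to between 520491 and 757931 FPKM, with 11562 to 12174 genes at 1 FPKM or more. Of 23376 entries per file, 92 were spike-ins and 25 could not be joined by name across the files and were left out.

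Tests used log2(FPKM + 1), a scale that understates changes of low genes, on the 11932 genes whose mean reached 1 FPKM, with limma 3.58.1 in R 4.3.3 (trend, two-sided, Benjamini-Hochberg over all tested genes, threshold 0.05), for KO against WT and for line 6 against line 4. The fits without a further term were run on simulated data with known changes. Apart from these changes the simulated data held no founder line effect and no shift between libraries, so the run does not cover either. Clone names in the labels show that replicate numbers stand for founder lines, so the numbers pair KO and WT; deviations of KO and WT of 1 number correlated at r = 0.70 across genes. The alternatives were a pseudocount of 0.1, no filter or one at 5 FPKM, median centring, quantile normalization, each library left out, and line or genotype as a further term. P-values of KO against WT without a block rest on the spread between single clones of separate lines. Those of the line comparison rest on the spread between KO and WT of a line, and with both terms on what neither explains. Limma draws each spread towards that of genes of like level. It used that pooled spread alone in the filtered line fits on the deposited scale and in KO against WT with the block. Copies were searched with BLAST 2.17.0. Named genes were all 10 members and, of each other list described, up to 3 genes of lowest p per comparison, of which the text gives a part. The members and lists were chosen with earlier results of these data known. One of the genes nearest to Tfap2c in profile is not reported here.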

Additional observations from a re-analysis of the deposited data

Results flagged for a closer look

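Krt19 was set apart because its KO clone moved in opposite directions in the founder lines. KO minus WT in log2(FPKM + 1) was -0.451 in line 4 and 0.096 in line 6, with 6.69 FPKM in KO and 9.50 FPKM in WT of line 4 and 3.77 FPKM in KO and 3.46 FPKM in WT of line 6. Each line holds 1 KO and 1 WT clone, so the difference between the lines was not tested. Set against its line's median gene, Krt19 lay at -0.006 and 0.281.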

How the results depend on the processing

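For KO against WT the count of genes past the test was 2 as reported and with a pseudocount of 0.1, 0 with no filter, on centred values and with quantile normalization, 8 with a filter at 5 FPKM, 0 to 133 with single libraries left out, 95 with the replicate block (4 higher, 91 lower), 33 with that block and centred values (31 higher, 2 lower), and 91 with that block and a robust spread, chosen after seeing the data. At an unadjusted p under 0.05 the unfiltered fit had 176 genes higher and 1568 lower, the centred fit 60 and 24, and the quantile fit 57 and 19. For line 6 against line 4 the count was 236 as reported, 239 with a pseudocount of 0.1, 0 with no filter (1243 higher, 967 lower by unadjusted p below 0.05), 75 with a filter at 5 FPKM, 3602 on centred values, 3865 with quantile normalization, 7 to 1607 with single libraries left out, 1089 with genotype as a term, 3531 with that term on centred values and 1096 with it and a robust spread. Split by direction, the reported 113 higher and 123 lower became 438 and 651 with genotype as a term, 241 and 1366 without KO replicate 1 and 682 and 171 without WT replicate 1.

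Among the members, KO minus WT changed sign for Eomes, to 0.084 on centred values with and without the replicate block and 0.0030 with quantile normalization. Tfap2c changed sign to 0.017 with quantile normalization and ran from -0.86 to 0.22 without single libraries. Krt19 changed sign to 0.13 on centred values, with and without the block, and 0.13 with quantile normalization, and ran from -0.80 to 0.44 without single libraries. Line 6 minus line 4 of Tead4 ran from -0.50 to 0.061 without single libraries. Centring moved KO minus WT of every tested gene up by the same amount, the median gene from -0.317 to -0.011, and the sign changes on centred values are that shift. The cause of the sign changes with quantile normalization and without single libraries was not tested. None of these values passed the test. Of the members' other values under an alternative, 58 kept direction and side of the threshold for KO against WT and 51 for the lines; 1 and 18 newly passed. On centred values and with quantile normalization, without a genotype term, Tfap2c (adjusted p = 0.00205 and 0.00422) and Krt19 (0.00402 and 0.00647) passed between the lines. The founder line block changed no call of a member for KO against WT other than that of Krt8 on centred values. Depth is unknown, so differences of Cdx2, Hand1, Gata3 and Elf5, all under 1 FPKM, were not tested, and an unknown error of the spike-in scale limits all comparisons across libraries.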
